A study of Mus musculus with 12 samples.

Results

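Intergenic transposable element (TE) copies of 1 to 5 kb were examined in gonocytes, the germ cells of the newborn testis, with and without Morc1. A copy belonged to the class when its listed coordinates spanned over 1000 and up to 5000 bp and overlapped no gene of GENCODE release 21 for mouse (GRCm38) on either strand. No expression value entered this choice. The rule found 23498 copies among 298593 listed in the TE table. The study isolated male germ cells from testes of Mvh-Venus transgenic mice, whose reporter marks cells expressing Mvh (Ddx4). Compared here are 3 libraries of Morc1 (+/-) gonocytes (het) and 3 libraries of Morc1 (-/-) knockout gonocytes (KO), all at postnatal day 0 (P0) and all carrying the reporter. The labels name 12 samples, and the 6 of postnatal day 3 (P3) were not analysed here. No strain is given in the labels, nor whether each library came from a separate animal, so p-values measure the spread between these libraries, which may be technical.

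Much of the mouse genome outside genes is sequence left by transposable elements, and a copy of a few kilobases is usually a truncated element or an internal stretch of one rather than a whole element. In male germ cells before birth DNA methylation is erased and then rebuilt, and small RNAs of the piRNA pathway, repressive histone marks and DNA methyltransferases together keep TE copies silent. MORC1, a nuclear protein with an ATPase domain, is known to be needed for this repression in the male germ line. An intergenic copy lies in no annotated gene body, although an unannotated or extended transcript can still cover it.

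Some members carry an annotated transcription start. RefSeq (GRCm38.p6) promoter windows, which run from 250 bases before to 50 bases after a gene's start, touched 63 members with 64 windows, and 35 windows lay wholly inside a member. Of the members touched, 20 had enough reads to be tested, 2 of them were called higher in KO and 0 lower, with 15.6% and 0.735% of all tested TE copies called higher and lower. The 4 windows printed here are those wholly inside a member with the lowest adjusted p, chosen after their values were seen, to show what sequence at a start inside such a copy looks like. Each is given 5′ to 3′ on the strand of the RefSeq gene, with CG sites, the target of DNA methylation, in capitals.
Gm41007, chr13:78316080-78316379, plus strand: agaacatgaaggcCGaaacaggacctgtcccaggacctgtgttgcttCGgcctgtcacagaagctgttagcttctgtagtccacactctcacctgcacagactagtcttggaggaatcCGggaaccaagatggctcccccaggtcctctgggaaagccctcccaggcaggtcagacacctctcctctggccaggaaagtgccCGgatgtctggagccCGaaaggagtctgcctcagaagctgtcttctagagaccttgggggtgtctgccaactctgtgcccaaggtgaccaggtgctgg
Gm41939, chr1:120572228-120572527, minus strand: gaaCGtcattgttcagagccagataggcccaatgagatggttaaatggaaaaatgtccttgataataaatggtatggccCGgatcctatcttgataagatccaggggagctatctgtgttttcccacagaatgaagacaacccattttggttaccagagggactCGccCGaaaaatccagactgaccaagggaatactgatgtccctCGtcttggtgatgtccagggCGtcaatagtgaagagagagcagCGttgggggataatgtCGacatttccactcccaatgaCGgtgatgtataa
Gm40657, chr13:4565732-4566031, minus strand: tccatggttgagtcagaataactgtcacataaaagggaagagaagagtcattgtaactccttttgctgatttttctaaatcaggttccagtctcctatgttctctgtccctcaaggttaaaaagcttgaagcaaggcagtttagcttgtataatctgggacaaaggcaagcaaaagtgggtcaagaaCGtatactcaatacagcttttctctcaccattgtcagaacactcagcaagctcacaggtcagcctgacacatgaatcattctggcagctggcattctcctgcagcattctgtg
Gm41844, chr19:38379042-38379341, plus strand: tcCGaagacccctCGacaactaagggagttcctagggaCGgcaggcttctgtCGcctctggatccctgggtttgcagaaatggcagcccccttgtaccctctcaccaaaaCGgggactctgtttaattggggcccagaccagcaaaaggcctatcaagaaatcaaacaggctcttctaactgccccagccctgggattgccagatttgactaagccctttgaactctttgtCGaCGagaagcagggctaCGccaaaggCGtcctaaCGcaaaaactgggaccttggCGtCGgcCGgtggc

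The Gm41007 window holds 5 CG sites and lies in a minus-strand copy of 3505 bp, so the gene and the copy run in opposite directions. That copy had 6.33, 2.24 and 0 normalized counts in het as against 58.2, 50.3 and 50.5 in KO, in the order of replicates 1, 2 and 3 as throughout, a log2 fold change of 4.23 ± 0.80 (SE, limma adjusted p = 0.00406). Normalized counts are reads divided by a size factor per library, and limma's two-sided test was run on log2(normalized count + 1) over all copies tested. All 3 KO libraries stood well above all 3 het libraries. The Gm41939 window holds 9 CG sites in a minus-strand copy of 3271 bp on the gene's own strand, and 2 other RefSeq windows share a run of at least 50 bases with it. Its copy had 31.6, 0 and 9.58 normalized counts in het and 64.9, 168 and 37.6 in KO, with a limma adjusted p of 0.0482 that was lost in 9 of the alternative settings. The lowest KO library was only slightly above the highest het library there.

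The other 2 windows belong to copies that did not pass the test. The Gm40657 window, with 1 CG site, lies in a plus-strand copy of 1891 bp with a log2 fold change of 2.18 ± 0.72 (SE, limma adjusted p = 0.0642). With 13 CG sites, the Gm41844 window lies in a copy of 4979 bp on its own strand with a log2 fold change of 1.5 ± 0.50 (SE, limma adjusted p = 0.0649), and 5 other RefSeq windows share a run of at least 50 bases with it. For both copies every KO library was nevertheless above every het library. Across all 64 windows touching a member the median GC content was 47.0% with 4 CG sites, beside 52.7% and 7 CG sites over all 32851 windows. The letters TATAAA, searched on both strands, occurred in 9.38% of the windows touching a member and 13.6% of all windows. CCAAT occurred in 42.2% and 37.4%, AATAAA in 43.8% and 19.6%, and GGGCGG, part of GC-rich promoters, in 7.81% and 35.7%. Matches of the first 3 motifs can overlap one another, and a match is a description of the letters only.

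The gene table held 28363683 to 32816861 reads per library, and 1974504 to 3703419 were in the TE table. Morc1 itself was at 7248, 7485 and 4126 normalized counts in het and at 1360.5, 1343 and 1794 in KO, a log2 fold change of -2.03 ± 0.27 (SE, limma adjusted p = 0.0109), and the groups did not overlap. Germ cell markers summed to 107177 to 158088 normalized counts in het and 108492 to 154646 in KO, and no marker of any list was at 0 in all libraries. Sertoli cell markers summed to 17536 to 37259 in het and 12581 to 18099 in KO. Leydig cell markers, genes of steroid synthesis, summed to 776, 1079 and 24921 in the het libraries and to 510 to 1075 in KO, so het replicate 3 stood apart. Myoid and endothelial markers summed to 2436 to 2814 in het and 2185 to 3066 in KO, and blood and macrophage markers to 450 to 778 and 344 to 1062. No marker of the 5 cell type lists passed the test. All 7 Sertoli and all 5 Leydig markers nevertheless had a negative log2 fold change, with medians of -0.69 and -1.99. An unadjusted limma p under 0.05 was reached by 3 Sertoli and 0 Leydig markers, with 6.86% of all tested genes under it. Of the 8 germ cell markers 5 were positive and 3 negative.

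The whole class of intergenic 1 to 5 kb copies carried about 2.1 times as many reads in KO as in het. Over all listed TE copies the ratio was 1.48. Counting reads on all 23498 listed members, with no filter, there were 0.383, 0.356 and 0.665 reads per 100 gene reads in het, as against 0.789, 1.27 and 0.895 in KO. The means were 0.468 ± 0.171 (SD, n = 3) and 0.984 ± 0.252 (SD, n = 3). The lowest KO library was above the highest het library, het replicate 3, and KO replicate 2 was the highest of all. All listed TE copies together had 6.54, 6.02 and 8.71 reads per 100 gene reads in het and 8.95, 13.1 and 9.41 in KO. The groups did not overlap there either. Het replicate 3 is also the library with the high Leydig sum, and the part of other cells in its TE reads was not tested. Without it the difference of the means was 0.614 in place of 0.516. Members had at least 1 read in 58.6 to 58.9% of cases in the het libraries and 61.2 to 75.3% in the KO libraries. Of all reads in the TE table, members took 5.86, 5.91 and 7.64% in het and 8.82, 9.71 and 9.52% in KO. These are bulk samples, in which fewer cells of a type and less RNA per cell cannot be told apart.

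The ratio of KO to het reads grew along the length range. It was 1.85 for copies of over 1 to 2 kb, 2.13 for 2 to 3 kb, 2.40 for 3 to 4 kb and 2.85 for 4 to 5 kb. Copies of over 4 to 5 kb had 0.0441, 0.0438 and 0.0888 reads per 100 gene reads in het and 0.143, 0.211 and 0.149 in KO. Shorter intergenic copies of 500 to 1000 bp had a ratio of 1.51, and the longer ones of 5 to 6 kb a ratio of 5.10. Members over 50 kb from any gene had a ratio of 2.60, those 10 to 50 kb away 2.12, and those under 10 kb away 1.83. These ratios of group means were not tested against each other.

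**Figure D1:**
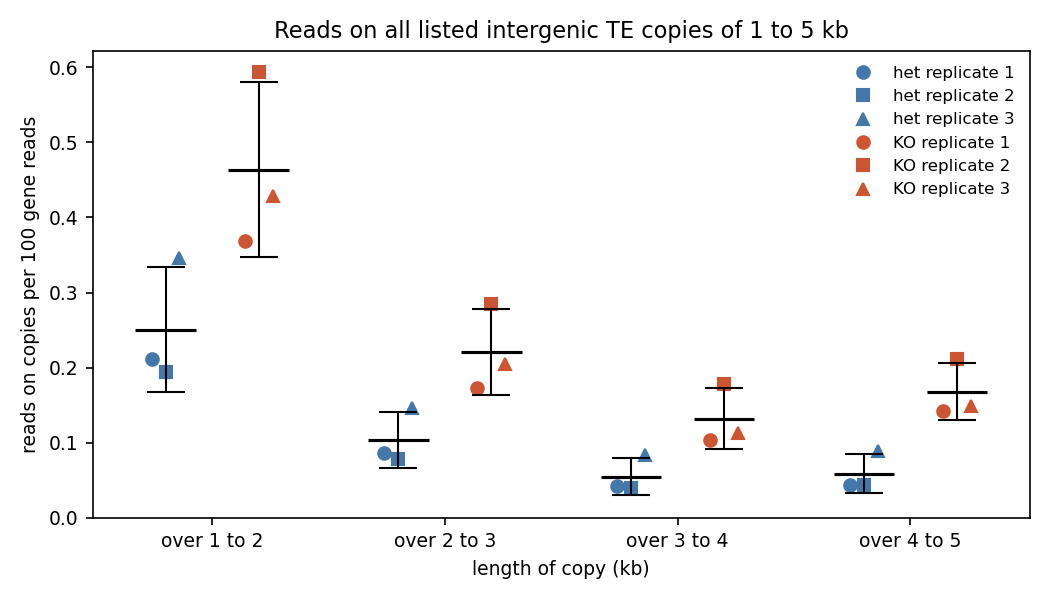
Reads on all listed intergenic TE copies per 100 gene reads (vertical axis) by length of copy in kb (horizontal axis), for each het (blue) and KO (red) library; horizontal bars are group means and whiskers the SD over 3 libraries. In each of the 4 length bins all 3 KO libraries lie above all 3 het libraries, with KO replicate 2 highest and het replicate 3 the highest het library.

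At the level of single copies, rises far outnumbered falls. Of the 23498 members, 4457 (19.0%) reached the mean of at least 10 normalized counts needed for the test, and 19041 did not. Of those tested, 1149 (25.8%) were called higher in KO, with 15.6% of all 49781 tested TE copies called higher, and 48 (1.08%) were called lower, with 0.735% lower over all tested copies. The remaining 3260 did not pass the limma test at an adjusted p of 0.05. The median log2 fold change was 1.10 over tested members and 0.03 over all tested copies. Dividing by gene-based in place of TE-based size factors moved the median of all tested copies by 0.35 on the log2 scale, to 0.38, and the members' median to 1.41.

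Which copies reach the filter bears on these counts. A copy silent in het could be tested only if KO raised it, and 1871 of the tested members had a het mean under 10, as against 497 with a KO mean under 10. Among the 2089 tested members with both means at 10 or more, 254 (12.2%) were called higher and 21 (1.01%) lower, with 8.58% and 0.512% of the 31255 TE copies tested with such means. Over all listed members, tested or not, every KO library was above every het library for 3818 (16.2%), where the share over all listed TE copies was 9.24%. All KO libraries lay below all het libraries for 1027 members (4.37%), with 6.75% over all listed copies. Among tested members, 39.8% had all KO libraries above all het libraries and 5.38% all below, against 22.8% and 7.58% of all tested copies.

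A large part of the extra reads lay on the higher copies. The 1149 went from 0.0266, 0.0245 and 0.0436 reads per 100 gene reads in het to 0.276, 0.395 and 0.282 in KO, a difference of 0.286 that describes copies picked by this contrast. These copies held 6.75% of the class's reads in het and 32.3% in KO. All other members together had 0.357, 0.331 and 0.621 in het and 0.513, 0.873 and 0.614 in KO. In that remainder the groups overlapped, since het replicate 3 lay above KO replicates 1 and 3.

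Many of the higher copies were tested only through their KO values. Of the 1149, 895 had a het mean under 10 normalized counts, 281 had no more than 3 reads in any het library and 104 had no het read at all. Their fitted log2 fold changes ran from 1.20 to 7.53 with a median of 3.42. With those 281 copies set at the bound that 3 reads per library allow, the median was 3.17. The 48 lower copies ran from -4.54 to -1.27 with a median of -2.76. Per kilobase of copy, the higher copies had a median of 1.88 normalized counts in het and 20.5 in KO, and the lower copies 22.2 in het and 2.83 in KO.

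**Figure D2:**
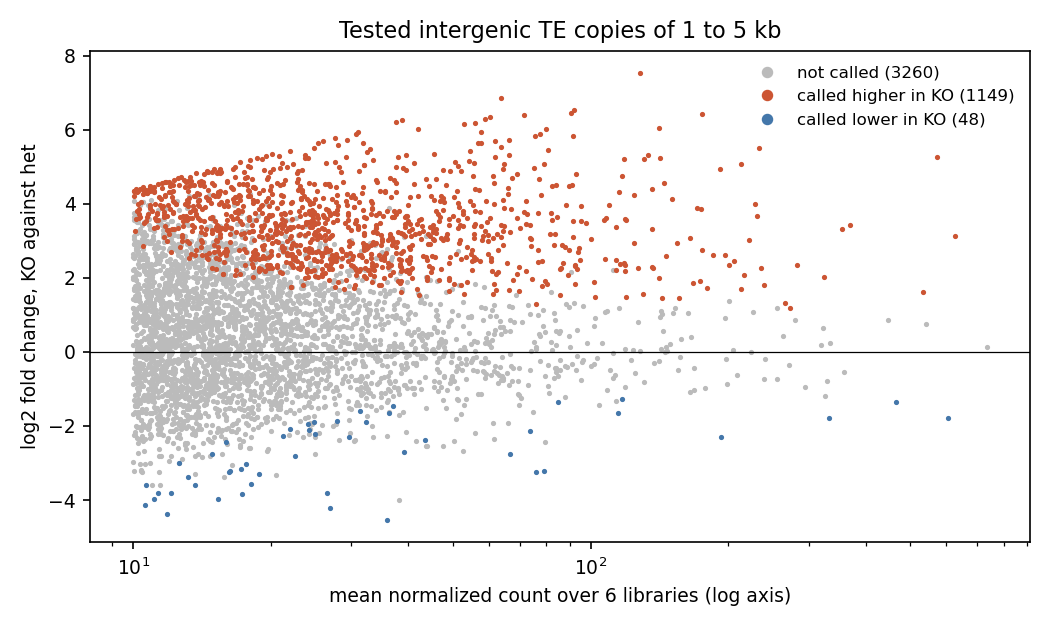
Log2 fold change of KO against het (vertical axis) by mean normalized count over the 6 libraries (horizontal log axis) for each tested intergenic copy of 1 to 5 kb; red points passed the test as higher, blue as lower and grey did not pass. The 1149 higher copies span most of the range of levels, and the 48 lower copies are few at every level.

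The KO libraries contributed about equally to these calls. The highest value of a higher copy fell in KO replicate 1 for 381 copies, in replicate 2 for 379 and in replicate 3 for 389. For 616 of the 1149 the highest KO library was within 2-fold of the lowest, and the median ratio of highest to lowest was 1.94. Leaving out 1 KO library nevertheless cut the count strongly, to 427 without KO replicate 1, 550 without replicate 2 and 592 without replicate 3, with 7.35, 9.08 and 9.64% of all tested TE copies called higher in those fits. Without het replicate 3 the count was 1351, with 18.1% over all tested copies. Falls depended on single libraries too, with 10 copies lower without het replicate 1 and 10 without het replicate 2, where 0.188 and 0.214% of all tested copies were lower.

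The 8 copies with the largest fold changes all had a het mean under 10 normalized counts, which ranking by fold change favours. The copy with the largest rise, chr5:47971685-47973540 on the plus strand (1856 bp), lies 1465 bp upstream of the pseudogene Gm43427 on the same strand. It had 1.05, 0 and 0 normalized counts in het and 163, 417 and 189 in KO (limma adjusted p = 0.000268). With only 1 het read, the ratio of reads per library size was 765, with a 95% exact counting interval of 137 to 30241. On chromosome 18, a minus-strand copy of 1462 bp at chr18:79828468-79829929, 29.7 kb from AC139296.3, had no het read and 149.8, 60.4 and 172 normalized counts in KO. Taking 3 reads per het library as the floor, the KO level was at least 40.6-fold higher.

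Another rise, the 1966 bp copy at chr4:21064890-21066855 (minus strand, 54.0 kb from the pseudogene Gm11871), went from 5.27, 0 and 0 normalized counts in het to 198, 101 and 249 in KO. The copy 18.5 kb from Gm19571, chr16:12360461-12362631 (minus strand, 2171 bp), went from 6.33, 0 and 0 to 231, 99.1 and 207. All of the het signal of both copies was in replicate 1. The copy 26.1 kb from Gm18957, chr5:26327723-26329320 (minus strand, 1598 bp), had 2.11, 0 and 17.3 normalized counts in het and 357, 219.8 and 456 in KO. Lowest to highest, its het libraries stayed more than 10-fold under its lowest KO library.

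The last copies of this group each had 2 het reads in all. The 1764 bp copy at chr12:42365499-42367262 (plus strand, 83.7 kb from the miRNA gene Gm25248) had 0, 2.24 and 0 normalized counts in het and 61.0, 227 and 139 in KO, a ratio of 213 with a 95% exact counting interval of 58.7 to 1765. The 1291 bp copy at chr6:75748735-75750025 (minus strand, 32.3 kb from Gm9001) had 0, 2.24 and 0 in het and 119, 128 and 112 in KO, with a ratio of 173 and an interval of 47.6 to 1433. The copy at chr5:40215897-40217343 (plus strand, 1447 bp, 111 kb from Gm2810) had 2.11, 0 and 0 in het and 135, 134 and 81.3 in KO, with a ratio of 168 and an interval of 46.3 to 1395. These intervals cover counting error only. All 8 copies are at most 2171 bp long, where the median was 2093 bp over tested members and 2412 bp over higher ones. A processed pseudogene is the nearest gene for 7 of them. It was so for 1489 of the 4457 tested members and 460 of the 1149 higher ones. The limma adjusted p-values of the 8 copies lay between 0.000268 and 0.000737.

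The 6 higher copies with most RNA in KO already had some RNA in het, and 5 of them were longer than any of those 8. The 3636 bp copy at chr11:86812241-86815876 (minus strand) lies 4495 bp upstream of Dhx40, a gene for a DEAH-box helicase, on the same strand. It had 54.8, 69.5 and 270.3 normalized counts in het and 603, 2227 and 533 in KO, a log2 fold change of 3.13 ± 0.65 (SE, limma adjusted p = 0.00682). KO replicate 2 alone was far above the others, and het replicate 3 was within 2-fold of KO replicate 3. The 4355 bp copy at chr16:56330867-56335221 (minus strand) ends 365 bp downstream of the pseudogene Gm21050 and adjoins a longer copy of 6143 bp. It had 61.2, 38.1 and 7.67 in het and 1509, 740.0 and 1078 in KO, a log2 fold change of 5.27 ± 0.63 (SE, limma adjusted p = 0.000501). Every KO library exceeded every het library more than 10-fold.

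The copy at chr3:8020058-8022677 (minus strand, 2620 bp), 65.2 kb from the lincRNA gene 1700010I02Rik, was the most even of this group. It had 307, 296 and 192 normalized counts in het and 872, 797 and 729.6 in KO, means of 265 ± 63.6 and 799.6 ± 71.1 (SD, n = 3) and a limma adjusted p of 0.0075, although the call was lost in limma without trend and without KO replicate 1. On the X chromosome, the 2662 bp copy at chrX:86533245-86535906 (minus strand), 127 kb from n-R5s10, had 71.7, 128 and 23.0 in het and 596, 795 and 606 in KO (limma adjusted p = 0.00143). Both were clearly separated between genotypes. The 2655 bp copy at chr3:97376351-97379005 (minus strand), 28.4 kb from the olfactory receptor gene Olfr1402, had 94.9, 90.9 and 23.96 in het and 519, 950.5 and 445 in KO (limma adjusted p = 0.00166). At 21.6 kb from Gm3213, chr10:6344433-6346086 (plus strand, 1654 bp) had 109.7, 89.7 and 174 in het and 427, 789.5 and 349.8 in KO (limma adjusted p = 0.00618). In these last copies KO replicate 2 was again the highest library.

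In each length bin the copy with the lowest p was taken from those called higher, so its direction was fixed by that choice. In every bin that copy had all 3 KO libraries above all 3 het libraries. For over 1 to 2 kb it was the 1956 bp copy at chr1:41367552-41369507 (minus strand, 157 kb from Gm28634), at 5.27, 7.85 and 5.75 normalized counts in het and 311, 324 and 198 in KO (limma adjusted p = 0.000268). In the bin of 2 to 3 kb it was the 2660 bp copy at chr6:142230779-142233438 (plus strand), 789 bp downstream of Slco1a5, a gene for an organic anion transporter on the opposite strand, at 22.1, 10.1 and 5.75 in het and 518, 337 and 385 in KO. Both rose more than 10-fold in every pairing of a KO with a het library. In the bin of 3 to 4 kb it was chr18:54257465-54260639 (plus strand, 3175 bp, 162 kb from the lincRNA gene Redrum), at 0, 2.24 and 1.92 in het and 63.0, 152 and 122 in KO. Among the longest, over 4 to 5 kb, it was the 4683 bp copy at chr6:69489465-69494147 (minus strand), 6107 bp from the immunoglobulin kappa segment Igkv4-58 and inside the RefSeq Igk locus, at 16.9, 8.97 and 9.58 in het and 277, 254 and 252 in KO. For the last 3 copies the limma adjusted p-values were 0.000398, 0.000551 and 0.000398.

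The largest falls were on copies with far fewer reads. On the X chromosome, the 3605 bp copy at chrX:119299484-119303088 (plus strand, 110 kb from Gm14926) had 75.9, 108 and 24.9 normalized counts in het and 5.72, 1.55 and 0 in KO, a log2 fold change of -4.54 ± 0.87 (SE, limma adjusted p = 0.00424). Its call held in the alternatives that tested it, a mean of at least 50 being the one that did not. The 1199 bp copy at chr12:11481576-11482774 (minus strand, 16.5 kb from Gm47807) had 10.5, 15.7 and 45.0 in het and no KO read. This makes it at least 9.20-fold lower in KO. Its call was lost with the replicate number added to the fit as a block and without het replicate 1 or 2. Without het replicate 3 it was not tested. At 52.2 kb from Gm9335, chr14:107801995-107804991 (minus strand, 2997 bp) had 26.4, 28.0 and 96.8 in het and 0, 10.8 and 0 in KO, with the call lost by edgeR, with a pseudocount of 0.1, or on leaving out het replicate 2, het replicate 3, KO replicate 1 or KO replicate 3. None of the 5 largest falls had a tested copy within 500 bp or overlapped a RefSeq gene.

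The last falls rested on very few KO reads. The 1128 bp copy at chr19:52855074-52856201 (plus strand, 67.0 kb from the lincRNA gene AC163221.1) had 20.04, 23.6 and 19.2 normalized counts in het and 0.954, 0 and 0 in KO. With 1 KO read its het to KO ratio was 73.0, with a 95% exact counting interval of 12.6 to 2932. Its call was lost with the replicate block (limma adjusted p = 0.0569), and without any 1 het library it was not tested. On chromosome 1, the 2330 bp copy at chr1:33381586-33383915 (minus strand, 8001 bp from Gm7933) had 30.6, 12.3 and 22.0 in het and 0, 1.55 and 0 in KO, a ratio of 38.3 with an interval of 10.2 to 324. Its call was lost with a pseudocount of 0.1 and without het replicate 2 or KO replicate 1.

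The 3 members with most RNA in het did not follow the class, although picking by a high het value favours falls. Of 92 tested members with a het mean of at least 100, 6 (6.52%) were called higher and 11 lower. Of all tested TE copies at any level, 15.6% were higher and 0.735% lower, which is not a like comparison. The shares over all TE copies with such a het mean are not given here. Among tested members the share higher fell with the het mean, from 81.2% at a mean of 0 to 1 to the 6.52% above. The highest het mean, 937 ± 367 (SD, n = 3), was that of the 4911 bp copy at chr11:61391434-61396344 (minus strand), which overlaps the RefSeq gene Gm42081 although no GENCODE gene. It had 1307, 931 and 572 normalized counts in het and 271, 393 and 163 in KO, a log2 fold change of -1.77 ± 0.43 (SE, limma adjusted p = 0.0157), and 2 copies adjoining it were called lower as well. This call was lost with a pseudocount of 0.1, in limma without trend, and on leaving out any library other than het replicate 3 or KO replicate 2. The next copy, chrX:9329227-9331590 (minus strand, 2364 bp, 1119 bp upstream of Gm6829), had 923, 661 and 530.0 in het and 568, 819 and 916 in KO, a log2 fold change of 0.13 ± 0.37 (SE, limma adjusted p = 0.887), so the groups overlapped fully. A failed test does not show that the levels were equal. The 1372 bp copy at chr9:6595934-6597305 (minus strand, 1373 bp from Gm21089) had 1044, 652 and 361 in het and 249, 253 and 236 in KO, a log2 fold change of -1.35 ± 0.41 (SE, limma adjusted p = 0.0441). Its call was lost in 9 alternatives, among them leaving out any single library other than het replicate 3.

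**Figure D3:**
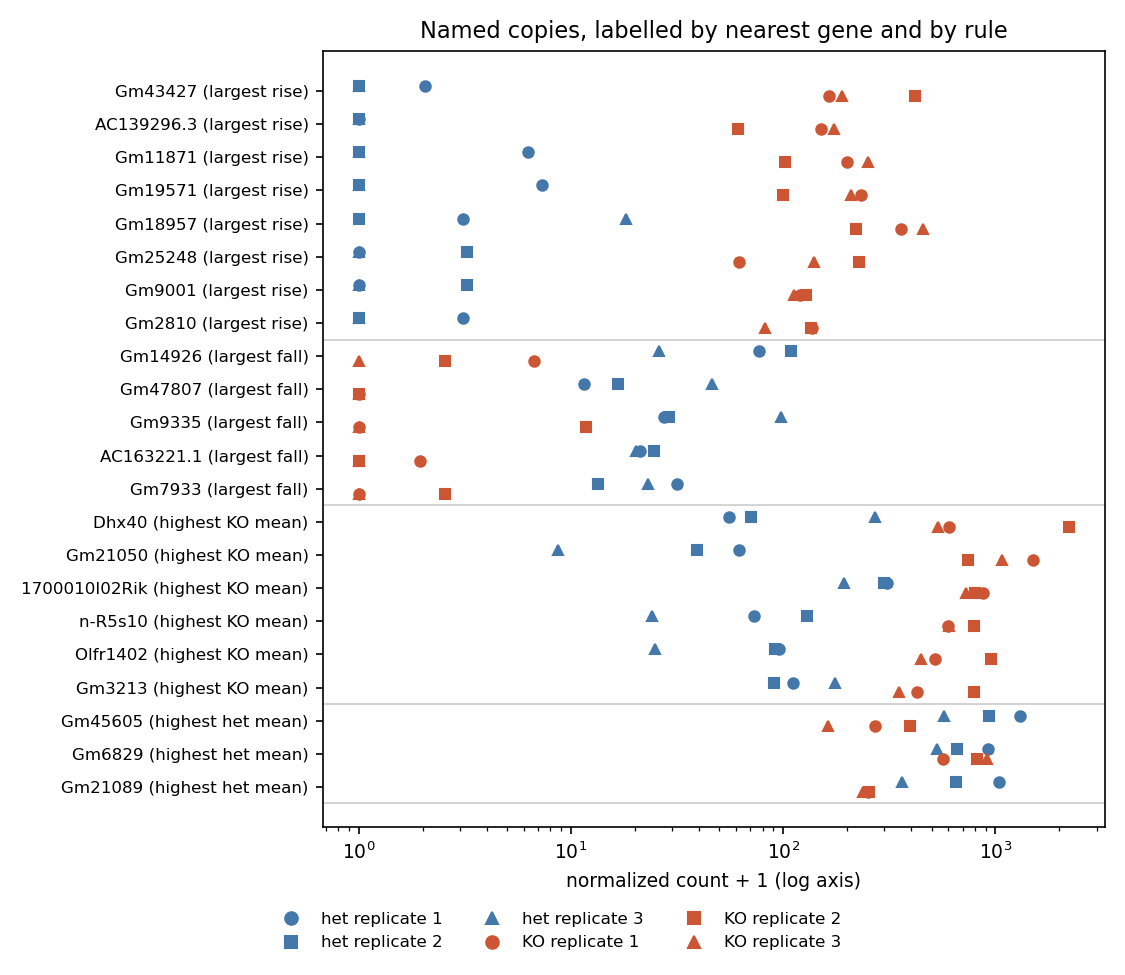
Normalized count + 1 (horizontal log axis) of each named copy in the 3 het (blue) and 3 KO (red) libraries, with copies labelled by nearest gene and by the rule that named them. Each copy has all KO libraries on one side of all het libraries except the copy near Gm6829, where they mix.

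Among tested copies, longer ones were called higher more often. The share was 22.6% of 2110 tested copies of over 1 to 2 kb, 24.5% of 905 of 2 to 3 kb, 26.0% of 615 of 3 to 4 kb and 35.1% of 827 of 4 to 5 kb. Median log2 fold changes were 0.68, 0.99, 1.34 and 1.84. On either side of the class, intergenic copies of 500 to 1000 bp gave 13.9% of 3320 and those of 5 to 6 kb 58.5% of 2845. Close to the limits themselves the steps were small. The share was 16.7% for copies of over 900 to 1000 bp and 19.5% just inside, at 1000 to 1100 bp, and it was 30.3% at 4900 to 5000 bp and 33.3% at 5000 to 5100 bp.

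Copies far from genes were also called higher more often. Within 1 kb of a gene the share was 14.2% of 261, below the 15.6% of all tested TE copies, and it was 20.6% of 1394 at 1 to 10 kb and 27.6% of 1730 at 10 to 50 kb. Beyond that it was 33.3% of 574 at 50 to 100 kb and 31.5% of 498 over 100 kb away. Splitting by length, copies of 1 to 2 kb went from 14.0% under 10 kb to 31.9% over 50 kb from a gene, while those of 2 to 5 kb went from 25.0% to 32.9%. Short copies near genes had the lowest share and a median log2 fold change of 0.09. None of these differences in share was tested, since copies are not independent samples.

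**Figure D4:**
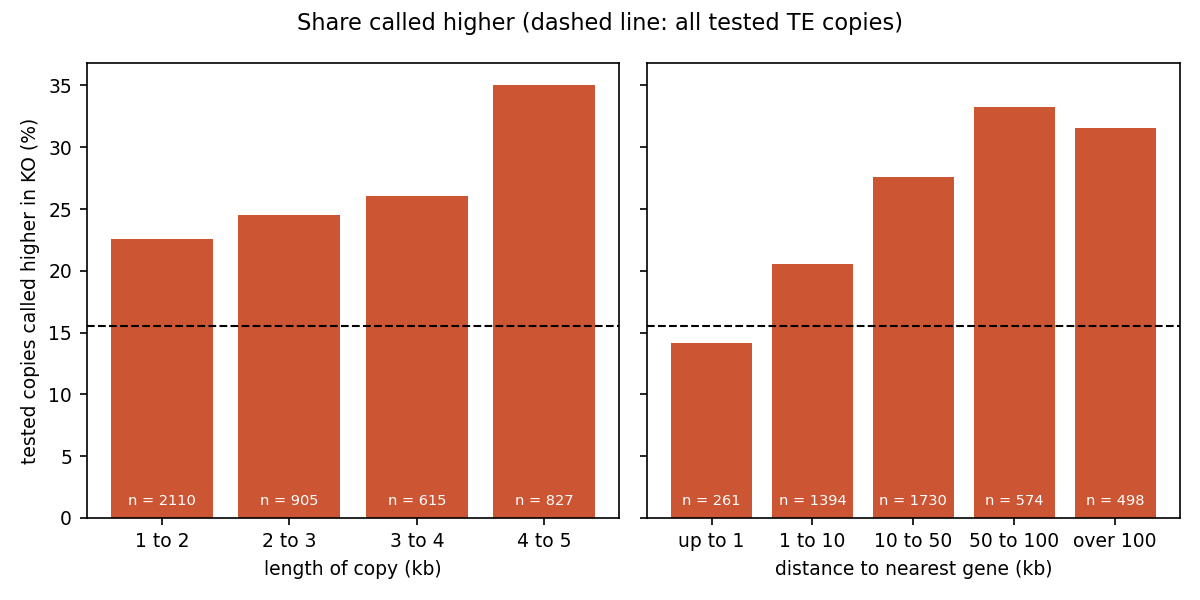
Percent of tested intergenic 1 to 5 kb copies called higher in KO (vertical axis) by length of copy (left, kb) and by distance to the nearest gene (right, kb), with the number tested in each bar; the dashed line is the 15.6% of all tested TE copies. Bars rise from 22.6% to 35.1% with length and from 14.2% within 1 kb of a gene to 33.3% at 50 to 100 kb. The share of listed copies that were tested also rose with length, from 15.1% to 33.7%.

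The kind of gene nearby differed as well. With a protein-coding gene as the nearest gene 18.1% of 1334 tested members were called higher, with a lincRNA gene 24.4% of 591 and with a processed pseudogene, a reverse-transcribed gene copy, 30.9% of 1489. Members nearest to olfactory receptor genes gave 33.8% of 74, those nearest to vomeronasal receptor genes 23.6% of 55 and those nearest to zinc finger (Zfp) genes 12.3% of 57. Members overlapping a RefSeq gene, though no GENCODE gene, gave 16.9% of 445, and the others 26.8% of 4012. By strand the shares were alike, 26.6% on the plus and 24.9% on the minus strand, as annotated for the copy, since nothing states that the libraries kept the strand of the RNA. Among chromosomes the share ran from 18.9% of 254 on chromosome 10 to 35.5% of 318 on chromosome 4, with 33.8% of 290 on X. Of the 36 members on Y, 2 were tested and 0 called.

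Higher copies lay next to other higher copies. Of 408 tested members with a higher TE copy of any length within 500 bp, 65.4% were higher, while of 776 whose tested neighbours held no higher copy 14.4% were. Next to a copy over 5 kb long the share was 39.0% of 159. Isolated members, with no listed copy within 500 bp, still gave 24.1% of 1276, and they held 0.122, 0.114 and 0.260 reads per 100 gene reads in het, as against 0.234, 0.406 and 0.290 in KO. There het replicate 3 lay above KO replicate 1, so the groups overlapped. The sources used here do not say how reads that match more than 1 similar copy were assigned, so neighbouring or similar copies may share reads and values of single copies are uncertain.

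At a wider scale most rises were single when only members of this class were counted. Higher copies of other lengths were left out of the chains below. Of the 1149, 267 (23.2%) had a higher TE copy of any length within 500 bp, with 4.26% of tested members not called higher. Chained within 10 kb, the 1149 higher copies formed 1027 loci, of which 923 held 1 copy, 90 held 2, 11 held 3 and 3 held more. The largest held 5 plus-strand copies between 35733064 and 35755866 on chromosome 14, 53.6 to 75.0 kb from 4930596D02Rik. Of these, the copy at chr14:35734655-35736035 had no het read and 31.5, 57.3 and 63.3 normalized counts in KO, at least 16.2-fold higher. The one at chr14:35740631-35742049 had no het read either and 14.3, 34.8 and 59.0 in KO, at least 11.5-fold higher, with the call lost without KO replicate 2. At chr14:35733064-35734522 a copy had 0, 2.24 and 5.75 in het and 115, 38.7 and 63.3 in KO. Weaker evidence came from chr14:35751027-35753725 and chr14:35753768-35755866, with limma adjusted p-values of 0.0352 and 0.0404, whose calls were lost with a pseudocount of 0.1, with quantile normalization and without het replicate 1 or KO replicate 1 or 2. The first was also lost by edgeR and without het replicate 2 or KO replicate 3. The second was also lost with the replicate block, and without KO replicate 3 it was not tested.

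Few genes within 10 kb of these copies changed, but those that did all rose. Of 149 tested genes within 10 kb of a higher copy, 8 (5.37%) were called higher and 0 lower, with 0.431% of all 26005 tested genes higher and 0.0423% lower. Near tested members not called higher, 10 of 1042 genes (0.96%) were higher, and near lower copies 0 of 7. Within 50 kb of a higher copy, 19 of 671 genes (2.83%) were higher and 1 was lower. The count of 8 moved with single libraries, at 1 without KO replicate 1, 3 without KO replicate 2, 1 without KO replicate 3, 5 without het replicate 1, 4 without het replicate 2 and 10 without het replicate 3. None of the 8 genes changed direction in an alternative.

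The first 3 genes kept their own calls in the 8 alternative gene fits run (a pseudocount of 0.1, the replicate number as a block, and each library left out). Their copies were less firm, since without KO replicate 1 or 3 the copies beside Sult2a5 and Mup3 lost their call or were not tested, and the count above needs both calls. 4930558C23Rik, on chromosome 3, had 40.0, 31.9 and 34.1 normalized counts in het and 1357, 1568 and 1847 in KO, a log2 fold change of 5.45 ± 0.27 (SE, limma adjusted p = 5.09e-05), and a higher copy 5559 bp downstream at 4.22, 0 and 0 in het and 37.2, 89.0 and 70.1 in KO. Sult2a5, of a family of sulfotransferases acting on steroids and bile acids, had 15.3, 11.6 and 13.7 in het and 781, 414 and 998 in KO, a log2 fold change of 5.57 ± 0.40 (SE, limma adjusted p = 0.000391). Its copy, chr7:13621610-13623358, lies 609 bp upstream on the same strand, had no het read and was at least 6.94-fold higher in KO. Mup3, a major urinary protein gene, had 4.77, 9.66 and 21.5 in het and 508, 1006 and 663 in KO, a log2 fold change of 5.97 ± 0.51 (SE, limma adjusted p = 0.00116), with a copy on the other strand 8697 bp upstream that was at least 7.85-fold higher. In all 3 the gene had many more reads than the copy, and KO and het were far apart.

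Weaker calls followed in the other 5 genes. Gzmc, for a granzyme, a protease of cytotoxic lymphocytes, had 7.63, 21.2 and 32.2 normalized counts in het and 304, 199 and 442 in KO (limma adjusted p = 0.0114), with a copy 7626 bp upstream at 3.16, 2.24 and 8.63 in het and 76.3, 67.3 and 145 in KO. Akr1c21, for an aldo-keto reductase acting on steroids, had 107, 87.9 and 105 in het and 684, 389 and 1031 in KO (limma adjusted p = 0.012), with a same-strand copy 2254 bp upstream at 2.11, 5.61 and 0.958 in het and 18.1, 13.9 and 51.3 in KO. Both gene calls were lost without KO replicate 1 or 3, though no library of one genotype reached the other. The pseudogene Gm21050, beside the abundant copy described above, had 10.5, 0.966 and 0 in het and 180.1, 102 and 121 in KO (limma adjusted p = 0.0285).

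Igkv4-63, an immunoglobulin kappa variable segment, had 20.02, 12.6 and 33.2 normalized counts in het and 146, 115 and 216 in KO (limma adjusted p = 0.0336), with a same-strand copy 6329 bp upstream at 0, 2.24 and 11.5 in het and 64.9, 36.4 and 71.9 in KO. Gm42944 had 5.72, 11.6 and 0 in het and 98.9, 213 and 180.3 in KO (limma adjusted p = 0.0387), with a copy 8849 bp upstream that was at least 6.55-fold higher. Gm21050, Igkv4-63 and Gm42944 each lost the call when any 1 KO library was left out. The copies beside Sult2a5, Akr1c21, Igkv4-63 and Gm42944 lost their own calls in 3, 7, 3 and 4 alternatives. Fits in which a copy fell under the filter are not in these counts. The Gm42944 copy was not tested when any 1 KO library was left out. Nor was the Sult2a5 copy tested without KO replicate 2 or 3, or the Akr1c21 copy without KO replicate 3. Sult2a5, Mup3, Gzmc, Akr1c21 and Igkv4-63 belong to families of similar genes, so reads may have been split or shared among relatives. Blood and macrophage markers did not pass the test and overlapped between genotypes, and their part in the Gzmc and Igkv4-63 values was not tested.

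**Figure D5:**
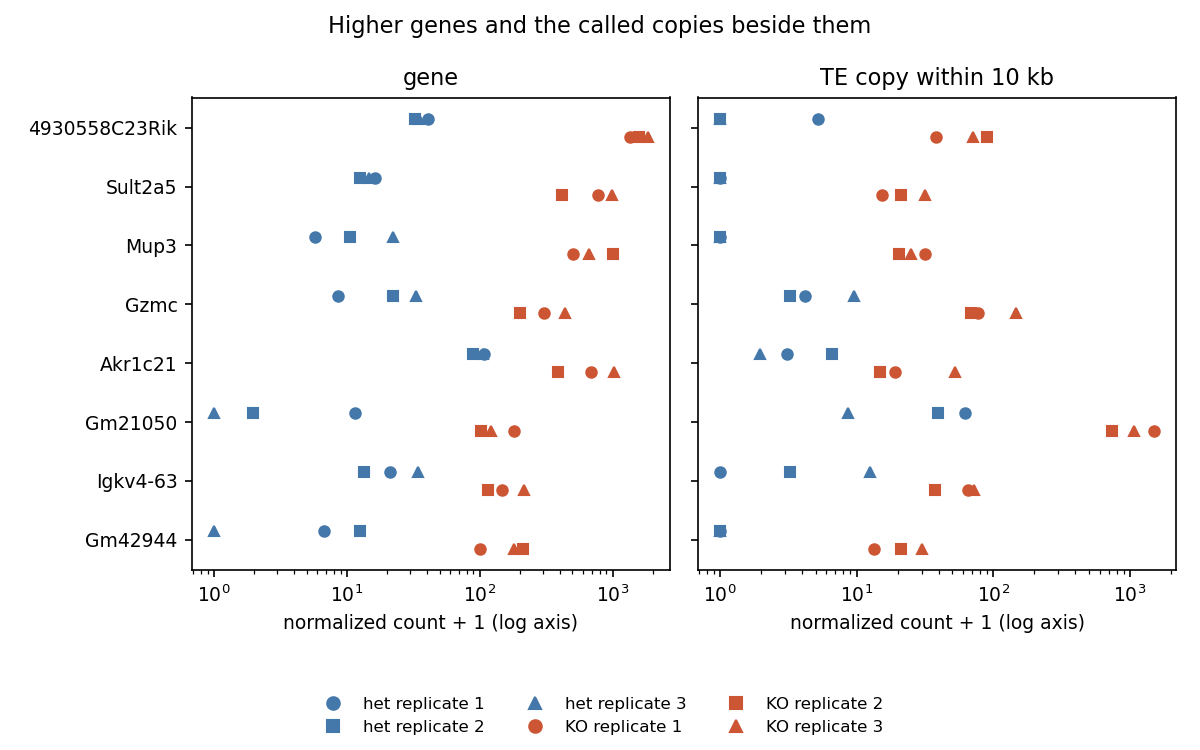
Normalized count + 1 (horizontal log axes) of the 8 genes called higher within 10 kb of a higher copy (left) and of that copy (right) in the 3 het (blue) and 3 KO (red) libraries. In each gene and each copy shown every KO library lies above every het library.

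Genes of TE silencing other than Morc1 did not pass the test in KO. Of a list of 31, all tested, 0 were called higher and 1, Morc1, lower, and 5 had an unadjusted p under 0.05, with 6.86% of all tested genes under it. Outside Morc1 these were Mov10l1, a piRNA pathway helicase, at 12593, 12337 and 8582 normalized counts in het and 23526, 15170.3 and 27099 in KO (limma adjusted p = 0.252), and Spocd1, needed for piRNA-directed DNA methylation, at 12403, 12184 and 12387 in het and 9982, 4374 and 6255 in KO (limma adjusted p = 0.347). The others were Gtsf1, a piRNA pathway cofactor (limma adjusted p = 0.467), and Tdrkh, a Tudor-domain protein of piRNA processing (limma adjusted p = 0.645). These 4 genes were picked by their low p, and none reached the threshold over all genes.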

How the data were processed

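The members, gene lists and tests were chosen with earlier results of these data known. The libraries were made from total RNA with SMART-seq v4 and TruSeq kits, per the labels' protocols. The deposited gene and TE tables hold a signal, reads that the authors divided by one size factor per library, called normalized counts here. In both, every value (100%) was within 0.01 reads of a whole multiple of 1 step per library, so reads were recovered from them. The submitters' processing notes name bcl2fastq 2.20, cutadapt 1.18, HISAT2 2.1.0, featureCounts 1.5.2 and DESeq2 1.26.0, and the builds mm10 and GRCm38, per the labels. Handling of reads matching several copies, strandedness and the source of the TE annotation are not given in the sources used here.

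Each copy was placed against GENCODE release 21 with bedtools 2.31.1. The tests used limma 3.58.1 (lmFit, eBayes with trend, two-sided) in R 4.3.3 on log2(normalized count + 1), so fold changes of copies with few reads depend on the added 1, for copies or genes with a mean of at least 10, with Benjamini-Hochberg adjustment over 49781 copies or 26005 genes and a threshold of 0.05. Depth ranged from 1974504 to 3703419 reads in the TE table. Alternatives were other pseudocounts and filters, gene size factors, quantile normalization, edgeR 4.0.16 and DESeq2 1.42.0 on the recovered reads, a replicate block, leaving out each library, and other distances. Only the limma fit was also run on simulated counts with known fold changes, and its outcome is not given here. Named copies were the 8 largest rises, the 5 largest falls, the 6 highest KO means among higher copies and the 3 highest het means. Added were the higher copy with the lowest p in each of 4 length bins and the locus with most higher copies. Except for that locus, each rule named at most 1 copy per 10 kb locus. Genes called within 10 kb of a called copy were named too. No same-genotype pair of libraries differed by less than sampling noise (mean chi-square of at least 3.88, with 1 expected). Base composition, repeats and open frames of whole copies were not analysed here.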

Additional observations from a re-analysis of the deposited data

How the results depend on the processing

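The count of 1149 higher copies stayed between 798 and 1522 under most settings. The lowest, with a pseudocount of 0.1, was 17.9% of members tested and 11.8% of all TE copies tested. The highest, with no filter, was 6.48% of 23498 members and 2.99% of all listed copies. With edgeR the count was 945 (21.2% of members tested, 13% of all TE copies tested), and with DESeq2 it was 1210 (27.1% and 15.7%). Over the fewer copies with a mean of at least 50 it was 252 of 488 (51.6%, with 37.4% of all such copies), over those with no listed copy within 500 bp it was 307 of 1276 (24.1%), and it ran from 427 to 1351 when a library was left out. The count of 48 lower copies was 1.08% of members tested, beside 0.735% of all TE copies tested. It was 20 with a pseudocount of 0.1 (0.449% and 0.41%), 81 with 10 (1.82% and 1.22%) and 101 with no filter (0.430% and 0.207%). A mean of at least 50 gave 17 (3.48% and 2.09%) and gene size factors 26 (0.529% and 0.371%). Quantile normalization gave 113 (2.54% and 2.08%) and DESeq2 96 (2.15% and 1.64%). Over isolated copies it was 9 of 1276 (0.705%), and it ran from 10 to 48 with a library left out. The difference in reads, 0.516 per 100 gene reads, was 0.145 over isolated copies, a sum over fewer copies, and 0.374 to 0.614 with a library left out. The count of 8 higher genes near higher copies was 19 within 50 kb, 4 with a pseudocount of 0.1 and 1 to 10 with a library left out. With the replicate number as a block it was 5, and 8 named copies lost the call. The block gave 956 higher copies (21.4% of members tested, 13.3% of all TE copies tested) and 33 lower (0.740% and 0.488%). Same-numbered libraries did not deviate together (correlations of 0.15, -0.24 and -0.12), so the numbers were not taken to pair the samples, and not every library correlated best with its own number. The fold change of the copy near Gm6829, 0.13, was -0.012 with edgeR, -0.035 with DESeq2, -0.0095 without KO replicate 3, and between -0.054 (without het replicate 3) and 0.35 with a library left out. Over 42 named copies and 636 comparisons, 555 kept direction and call, 72 lost the call, 5 gained one and 4 reversed. Settings in which a named copy fell under the filter and was not tested are not among these comparisons. Other than where the construction is named, the cause was not tested. Low read numbers limit most single copies, since 19041 members were not tested.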
